A study of Arabidopsis thaliana with 18 samples.

Results

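ATG8 proteins are small ubiquitin-like proteins that coat the membranes of autophagosomes, the vesicles that carry cytoplasm to the plant vacuole for breakdown. The protease ATG4 trims the C-terminus of a newly made ATG8, and ATG7, ATG3 and the ATG12-ATG5-ATG16 complex then join it to the lipid phosphatidylethanolamine. Bound ATG8 helps the membrane to grow and holds cargo receptors such as NBR1. Several Arabidopsis ATG8 transcripts are known to rise during starvation and senescence.

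The genes described are the 6 ATG8 family members APG8A (AT4G21980), ATG8B (AT4G04620), ATG8C (AT1G62040), ATG8D (AT2G05630), ATG8G (AT3G60640) and APG8H (AT3G15580), taken by name. These 6 were chosen with earlier results of these data known, so their counts beside shares of all features are only a description. Each was read from its brightest feature paired with exactly 1 gene, and each had 1 such feature, so 6 of the 16722 single-gene features of the table were used. RefSeq lists AT3G15580 under the symbol APG8H with ATG8I as a synonym, and a different gene, AT3G06420, under ATG8H. The ATG8 family of 9 genes was measured whole, and ATG8E (AT2G45170), ATG8F (AT4G16520) and ATG8H are given beside the 6. ATG8A to ATG8D are close relatives of each other, ATG8E to ATG8G form another branch, and the ATG8H and ATG8I proteins lack the C-terminal tail that ATG4 removes from the others. Because these genes are similar in sequence, some features may also report a relative. That was not tested, as the probe sequences were not analysed here.

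Transcripts were measured on 18 one-colour arrays from whole Arabidopsis thaliana seedlings 10 days old, 2 arrays in each of 9 groups. Seedlings were of the wild type WT (Col-0), of a mutant of CRF6 (crf6) or of the line CRF6oe, by its name a CRF6 overexpressor. CRF6 is a transcription factor of the cytokinin response, and the series was made to find its targets under oxidative stress and cytokinin. Seedlings were floated on 3 mM MES buffer for 1 h, and then received H2O2 to 20 mM, benzyl adenine (BA, a cytokinin) to 2 µM, or neither, with 0.2% DMSO in all solutions. Treatment lasted 6 h per the labels, which give no harvest time for the untreated seedlings and no allele or promoter for the crf6 and CRF6oe lines. The labels also do not say whether both arrays of a group used plants raised separately, so each p-value reflects only how far these arrays differ, which may be technical. The platform table used here pairs no feature with CRF6, so the genotypes were not checked on it.

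Levels are the authors' deposited values, taken to be on a log2 scale from their range, and no level of one feature is set against that of another. Changes are differences of group means from a limma fit to all 18 arrays, with standard errors (SE) from that fit. A gene was called at a Benjamini-Hochberg adjusted p under 0.05 over the 16722 features. The 6 CRF6oe arrays stood apart: they correlated over features at 0.917 to 0.946 with the other 12, which correlated among themselves at 0.948 to 0.991. No batch is given in the labels, and between CRF6oe and WT the genotype cannot be told apart from the arrays it was run on. Responses within CRF6oe compare CRF6oe arrays only. Of the tissue markers listed for green shoot and root, 1 of 8 and 1 of 7 were measured. The light-harvesting gene LHB1B2 stood between 10.19 and 12.25 on all arrays, and the root hair expansin EXPA7 between 3.67 and 4.87. Array medians over all features ran from 4.63 to 4.98, so EXPA7 was dim. Seed and flower markers had no single-gene feature.

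All 6 ATG8 members were higher in untreated CRF6oe than in untreated WT, by 1.53- to 5.23-fold, in a comparison that called 11.3% of all features higher and 25.3% in either direction. Of the other family genes, ATG8E and ATG8H were also called higher there and ATG8F was not. With H2O2, 4 of the 6 members fell in CRF6oe, by 1.86- to 2.44-fold (APG8A, ATG8B, ATG8C and ATG8D), where 1.2% of features were called lower and 2.61% in either direction. None of these 4 calls held in a fit of only the CRF6oe arrays compared or without either untreated CRF6oe array. No member was called in WT or in crf6 with H2O2 or BA, and none was called between crf6 and WT.

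**Figure D1:**
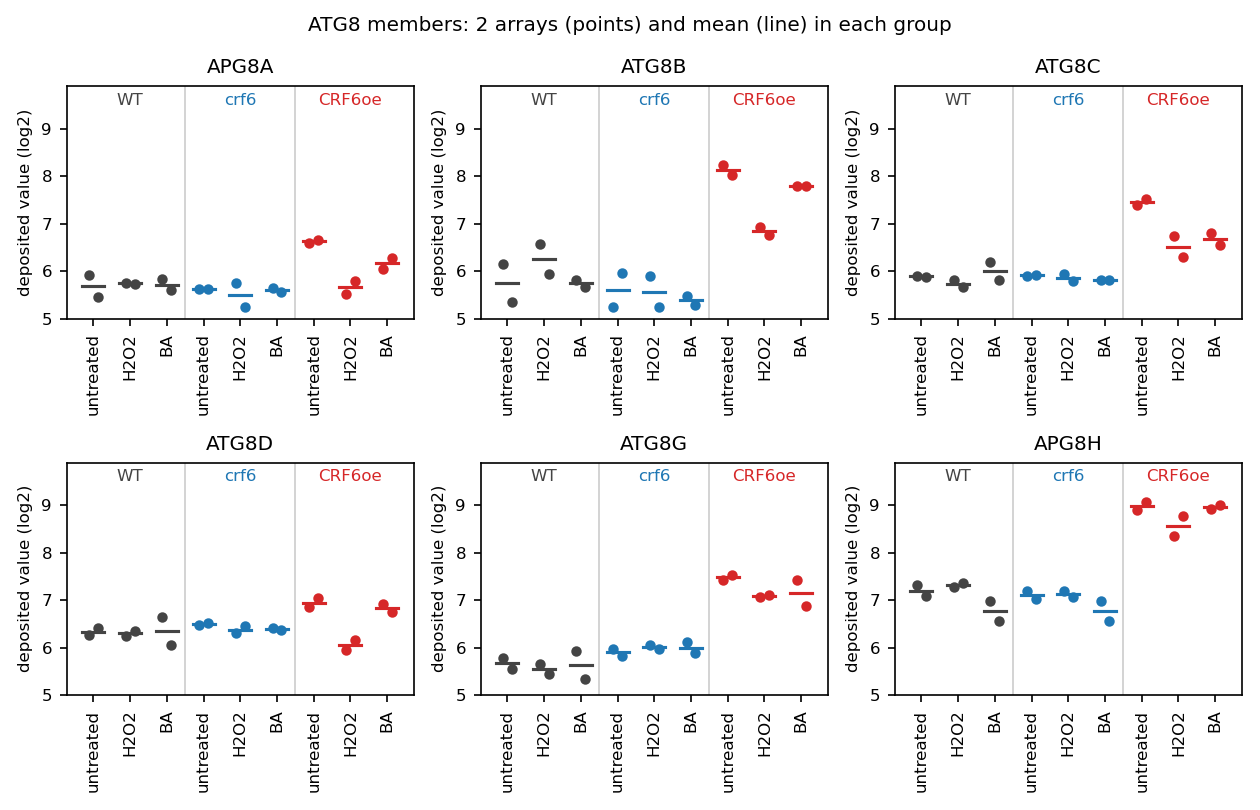
Deposited log2 value of each ATG8 member (vertical axis) on the 2 arrays of each group (points), with the group mean as a line, by genotype and treatment (horizontal axis). The WT and crf6 groups lie close together, while untreated CRF6oe is the highest group for every member, with a mean of 6.63 for APG8A and 8.98 for APG8H.

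ATG8B showed the widest range. Its untreated arrays read 6.14 and 5.35 in WT, 5.24 and 5.95 in crf6, and 8.24 and 8.03 in CRF6oe. With H2O2 they read 6.57 and 5.93 in WT, 5.89 and 5.24 in crf6, and 6.92 and 6.76 in CRF6oe. The BA arrays gave 5.82 and 5.67, 5.48 and 5.28, and 7.79 and 7.80 in the same order of genotypes. Every CRF6oe array lay above every WT and crf6 array. In the order of means the 3 CRF6oe groups came first, none overlapping the next, and from WT with BA downwards each group overlapped the one after it.

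ATG8C varied little outside CRF6oe, where its values on the 12 WT and crf6 arrays ran from 5.66 to 6.19, the widest pair being the WT arrays with BA at 6.19 and 5.82. In CRF6oe it read 7.38 and 7.52 untreated, 6.73 and 6.30 with H2O2, and 6.81 and 6.54 with BA. The untreated CRF6oe group stood clear of the 2 treated CRF6oe groups, which overlapped each other and lay above all others. Among WT and crf6 groups the means spanned 5.74 to 6.00.

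ATG8G and APG8H were also above all WT and crf6 arrays on every CRF6oe array. ATG8G read 7.42 and 7.54 untreated, 7.07 and 7.10 with H2O2, and 7.42 and 6.87 with BA in CRF6oe, against 5.33 to 6.11 on the other 12 arrays. APG8H read 8.91 and 9.06 untreated, 8.36 and 8.78 with H2O2, and 8.925 and 9.004 with BA in CRF6oe, against 6.57 to 7.37 elsewhere. For ATG8G the 3 CRF6oe groups followed one another with overlap. For APG8H, CRF6oe with H2O2 lay below the untreated and BA groups, which overlapped. The 3 crf6 group means of ATG8G, 5.90 to 6.01, all exceeded the 3 WT means, 5.55 to 5.67, and APG8H was lowest in the BA groups of WT and crf6, both at 6.78.

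APG8A and ATG8D did not stand higher in CRF6oe once H2O2 was present. APG8A read 6.60 and 6.65 in untreated CRF6oe, 6.04 and 6.29 with BA, and 5.51 and 5.80 with H2O2, the last pair lying within the range of WT and crf6 arrays (5.25 to 5.91). ATG8D read 6.85 and 7.05 in untreated CRF6oe, 6.91 and 6.75 with BA, and 5.95 and 6.16 with H2O2, against 6.06 to 6.65 on the other arrays. CRF6oe with H2O2 was thus the lowest of the 9 groups for ATG8D and the sixth for APG8A. In both genes the untreated and BA groups of CRF6oe ranked first and second. The pattern of all 6 CRF6oe arrays above all 12 others held for 4 of the 6 members, ATG8B, ATG8C, ATG8G and APG8H, and for 7.12% of all single-gene features.

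The response to H2O2 addresses whether oxidative stress moves ATG8 transcripts in each genotype. In CRF6oe 4 of 6 members fell, where 1.2% of all features were called lower and 2.61% in either direction. APG8A fell by 0.97 ± 0.20 (SE, 1.96-fold lower, adjusted p = 0.0239, limma) and ATG8B by 1.29 ± 0.30 (2.44-fold lower, adjusted p = 0.0371). ATG8C fell by 0.93 ± 0.19 (1.91-fold lower, adjusted p = 0.0179) and ATG8D by 0.90 ± 0.19 (1.86-fold lower, adjusted p = 0.0259). For these 4 genes neither H2O2 array overlapped an untreated one. ATG8G, at -0.39 ± 0.22 (adjusted p = 0.365), and APG8H, at -0.41 ± 0.20 (adjusted p = 0.298), did not pass. Their arrays did not overlap either, but how many of all features show this was not counted, so it adds nothing to the calls. The median of the 6 members was -0.91, against 0.05 over all features. The 4 called genes are those of the ATG8A to ATG8D branch. The other branches did not pass, with ATG8E at -0.03 ± 0.30, ATG8F at -0.18 ± 0.21 and ATG8H at -0.33 ± 0.28, so 4 of 9 family genes were called. Whether members differ from each other in response was not tested. The dim root hair gene EXPA7, the only root marker measured, fell with H2O2 over the 3 genotypes, by 0.68 ± 0.14 (adjusted p = 0.00747). It stood at -0.42 in CRF6oe, where LHB1B2 stood at -0.34 (adjusted p = 0.383 and 0.544). The part of these tissues in the ATG8 response was not tested. These calls depended on the fit: 0 of 6 passed in a fit of only the 4 CRF6oe arrays compared (adjusted p of the 4 genes 0.0931 to 0.193), and 1 of 6, ATG8C, when all 38408 features were tested. ATG8B also missed the threshold with quantile normalization (adjusted p = 0.0653) and with cyclic loess (0.0640). None passed without either untreated CRF6oe array, ATG8C alone without H2O2 replicate 1, and APG8A and ATG8D without H2O2 replicate 2, while the 4 changes stayed between -1.39 and -0.72 whichever array was left out.

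**Figure D2:**
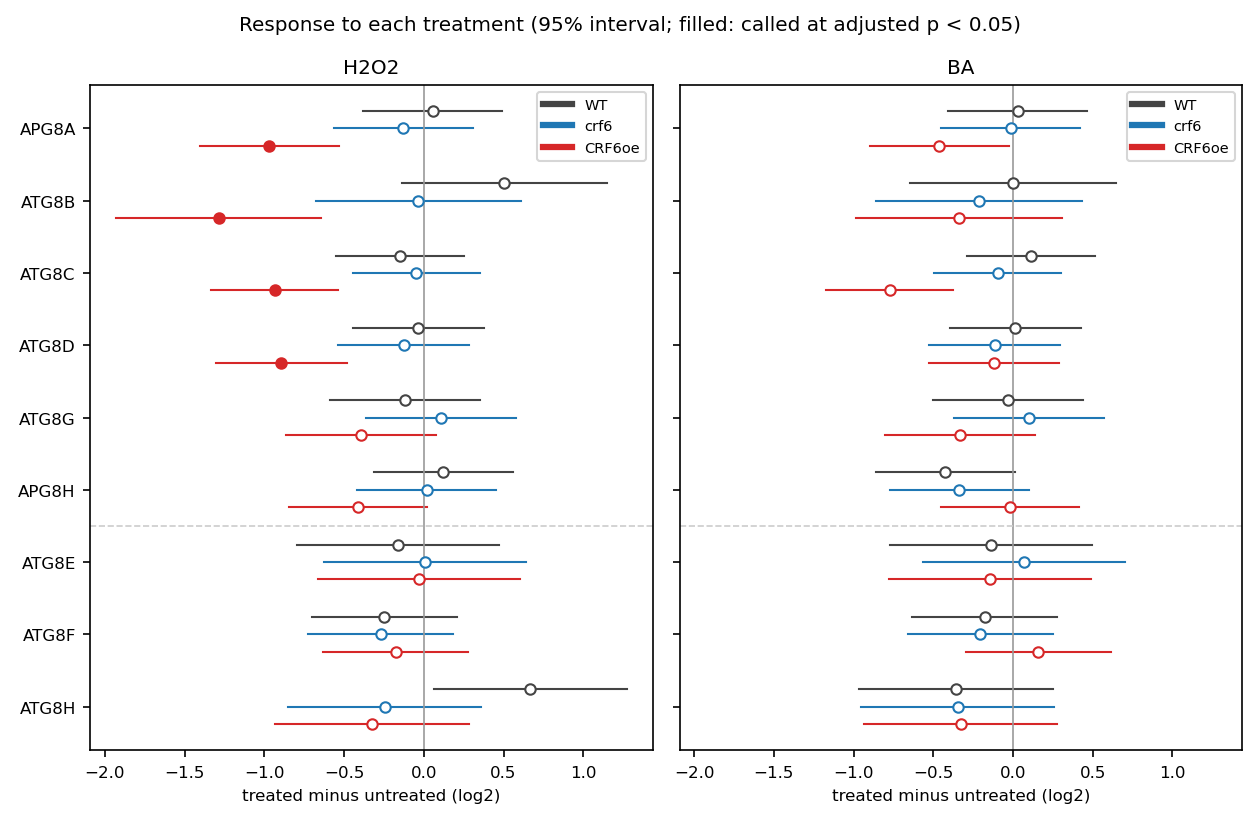
Treated minus untreated level (log2, horizontal axis) of the 6 members and, under the dashed line, the other ATG8 genes, for H2O2 and BA in each genotype, with 95% intervals. Filled points passed the threshold, and only APG8A, ATG8B, ATG8C and ATG8D with H2O2 in CRF6oe did so.

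In WT the members' H2O2 responses lay on both sides of 0. Limma called 0 of 6 (0 at an unadjusted p under 0.05), where 2.85% of features were called, and the median was 0.01. ATG8B had the largest value, 0.50 ± 0.30 (adjusted p = 0.595), with arrays that overlapped. Its 95% interval ran from -0.14 to 1.15, so no direction could be told from 2 arrays a group. APG8A stood at 0.06, ATG8C at -0.15, ATG8D at -0.03, ATG8G at -0.12 and APG8H at 0.12, and the intervals of these 5 reached from -0.59 to 0.56. ATG8H was at 0.67 ± 0.28 (adjusted p = 0.340), with WT values of 7.16 and 6.71 untreated and 8.05 and 7.16 with H2O2. In crf6, limma also called 0 of 6 with H2O2 (0 at an unadjusted p under 0.05, 1.93% of features called), with values from -0.13 for ATG8D and APG8A to 0.11 for ATG8G and a median of -0.04.

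Averaged over the 3 genotypes, the H2O2 response was called for 0 of 6 members, against 6.63% of features. At an unadjusted p under 0.05 stood 3 of 6 members and 3219 of 16722 features. ATG8C came nearest at -0.38 ± 0.11 (adjusted p = 0.0504), and APG8A and ATG8D both stood at -0.35 (adjusted p = 0.106 and 0.0793). ATG8C passed with the replicate number as a block (adjusted p = 0.0378), without the dimmest 30% of features and without CRF6oe H2O2 replicate 1. This average takes most of its size from CRF6oe, since the WT and crf6 responses of ATG8C were -0.15 and -0.05.

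The difference between the H2O2 responses of CRF6oe and WT asks directly whether the fall belongs to CRF6oe. It was below 0 for all 6 members, with a median of -0.82 against 0.05 over all features. Limma called 0 of 6, and 0.568% of features. At an unadjusted p under 0.05 stood 4 of 6 members and 2259 of 16722 features. ATG8B had the largest difference, -1.79 ± 0.43 (adjusted p = 0.0867), followed by APG8A at -1.02 ± 0.29 (adjusted p = 0.141). ATG8D stood at -0.86 ± 0.27 (adjusted p = 0.194), ATG8C at -0.78 ± 0.26 (adjusted p = 0.224), APG8H at -0.54 and ATG8G at -0.27. A fall in CRF6oe and none called in WT is therefore not shown to be a difference between the genotypes. Between crf6 and WT the response difference was called for 0 of 6 (0 at an unadjusted p under 0.05) and for 0% of features, with values from -0.54 for ATG8B to 0.23 for ATG8G.

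BA moved no member past the threshold in any genotype. Limma called 0 of 6 in WT (0 at an unadjusted p under 0.05), in crf6 (0) and in CRF6oe (2, APG8A and ATG8C), where 0.161%, 0.233% and 0.209% of features were called. In CRF6oe 1283 of 16722 features had an unadjusted p under 0.05. In CRF6oe ATG8C stood at -0.77 ± 0.19 (adjusted p = 0.152), APG8A at -0.46 ± 0.20 (adjusted p = 0.614) and the other 4 members between -0.34 and -0.02. The ATG8C arrays did not overlap between the groups, at 6.81 and 6.54 with BA and 7.38 and 7.52 without. APG8H stood at -0.43 ± 0.20 in WT and -0.34 ± 0.20 in crf6, where its arrays did not overlap, and at -0.02 in CRF6oe. How many of all features show such separation was not counted, so it adds nothing to these uncalled BA responses. Averaged over genotypes, 0 of 6 were called, against 2.53% of features. At an unadjusted p under 0.05 stood 2 of 6, ATG8C at -0.25 and APG8H at -0.26, and 2096 of 16722 features. The BA response differed from that of WT for 0 of 6 members in crf6 (0 at an unadjusted p under 0.05) and in CRF6oe (1, ATG8C at -0.89 ± 0.26, adjusted p = 0.999), and for 0% of features in both. For CRF6oe, 766 of 16722 features had an unadjusted p under 0.05.

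**Figure D3:**
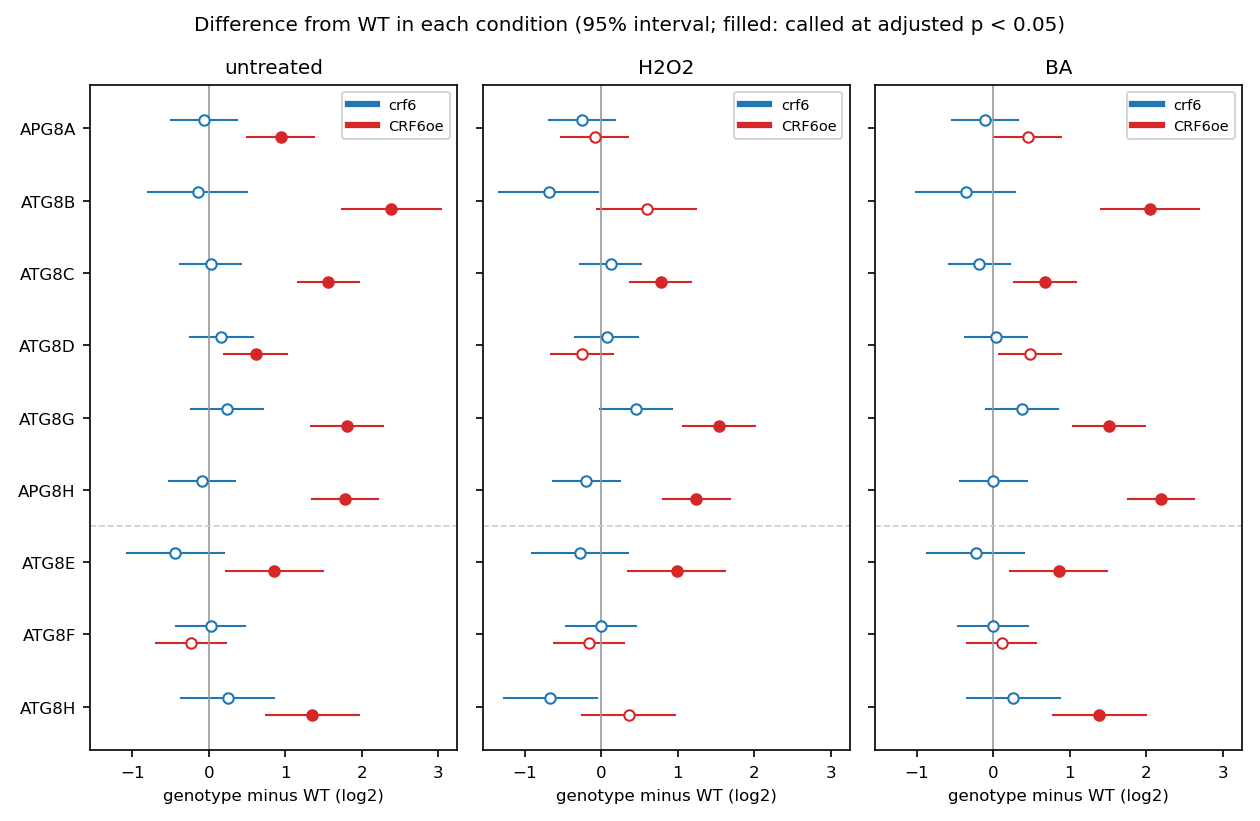
Difference from WT (log2, horizontal axis) of crf6 and CRF6oe in untreated, H2O2 and BA seedlings, with 95% intervals, for the 6 members and the other ATG8 genes under the dashed line. Filled points passed the threshold. The members' crf6 points lie between -0.69 and 0.46 and none is filled. For CRF6oe 6 members were called higher untreated, 3 with H2O2 and 4 with BA, against 11.3%, 14.8% and 11.8% of all features. These counts do not test a change between conditions, and the H2O2 and BA responses of CRF6oe minus those of WT were called for 0 members.

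Comparison of CRF6oe with WT gives the largest values of the family, where genotype cannot be told apart from the arrays it was run on. Untreated, 6 of 6 members were higher in CRF6oe, where 11.3% of features were called higher and 25.3% in either direction. ATG8B was 5.23-fold higher (2.39 ± 0.30, adjusted p = 6.89e-05, limma), ATG8G 3.51-fold (1.81 ± 0.22, adjusted p = 5.1e-05), APG8H 3.44-fold (1.78 ± 0.20, adjusted p = 3.54e-05) and ATG8C 2.95-fold (1.56 ± 0.19, adjusted p = 4.73e-05). APG8A was 1.92-fold higher (0.94 ± 0.20, adjusted p = 0.00332) and ATG8D 1.53-fold (0.61 ± 0.19, adjusted p = 0.0295). No untreated CRF6oe array of any member overlapped an untreated WT array, but how many of all features show this was not counted. The green shoot marker LHB1B2 stood at -0.50 ± 0.27 (adjusted p = 0.203). The members' median was 1.67, against -0.01 over all features, whose upper decile began at 0.76. The call of ATG8D was lost without each of the 4 arrays in turn (adjusted p 0.0540 to 0.160) and in the fit of only these arrays (0.0757), and that of APG8A without WT untreated replicate 2 (0.0551).

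Under H2O2, 3 of 6 members were higher in CRF6oe than in WT, against 14.8% of features called higher and 29.6% in either direction. ATG8G was 2.91-fold higher (1.54 ± 0.22, adjusted p = 2.07e-04), APG8H 2.37-fold (1.25 ± 0.20, adjusted p = 5.13e-04) and ATG8C 1.71-fold (0.78 ± 0.19, adjusted p = 0.00652). ATG8B stood at 0.60 ± 0.30 (adjusted p = 0.154) with arrays that did not overlap, APG8A at -0.08 ± 0.20 and ATG8D at -0.25 ± 0.19. The ATG8D arrays did not overlap either, with CRF6oe below WT. The share of all features with arrays apart in this way was not counted. Neither separation therefore adds to the uncalled values of ATG8B and ATG8D. LHB1B2 was lower by 0.86 ± 0.27 in the same comparison (adjusted p = 0.0278). That call was lost with quantile normalization (adjusted p = 0.0814), with cyclic loess (0.119) and in the fit of only these arrays (0.0937). LHB1B2 stood at -0.53 without CRF6oe H2O2 replicate 1 and at -0.66 without WT H2O2 replicate 2. The call of ATG8C was lost without CRF6oe H2O2 replicate 1 (adjusted p = 0.0756), without WT H2O2 replicate 2 (0.0501) and in the fit of only these 4 arrays (0.0829). The untreated CRF6oe arrays enter both this genotype comparison without treatment and the H2O2 response within CRF6oe, so the high untreated level and the fall are not independent of each other.

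With BA, 4 of 6 members were higher in CRF6oe, against 11.8% of features called higher and 24.5% in either direction. APG8H was 4.56-fold higher (2.19 ± 0.20, adjusted p = 7.35e-06), ATG8B 4.13-fold (2.05 ± 0.30, adjusted p = 2.07e-04), ATG8G 2.85-fold (1.51 ± 0.22, adjusted p = 1.91e-04) and ATG8C 1.60-fold (0.67 ± 0.19, adjusted p = 0.0155). ATG8D at 0.48 ± 0.19 (adjusted p = 0.0859) and APG8A at 0.45 ± 0.20 (adjusted p = 0.130) did not pass. In the rest of the family ATG8H (1.38, adjusted p = 0.00236) and ATG8E (0.85, adjusted p = 0.0480) were higher, and ATG8F at 0.11 was not called. The ATG8E call was lost with quantile normalization (0.0510) and with all features tested (0.0678). LHB1B2 was lower by 1.53 ± 0.27 (adjusted p = 8.2e-04). ATG8C lost its call without CRF6oe BA replicate 1 (adjusted p = 0.118), without WT BA replicate 2 (0.166) and in the fit of only these arrays (0.0788), and ATG8D gained one without WT BA replicate 1 (0.0173).

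Over the mean of the 3 conditions 5 of 6 members were higher in CRF6oe, against 23.4% of features called higher and 46.4% in either direction. APG8H led with 1.74 ± 0.12 (3.34-fold), then ATG8B with 1.68 ± 0.17 (3.20-fold), ATG8G with 1.62 ± 0.13 (3.08-fold), ATG8C with 1.00 ± 0.11 (2.01-fold) and APG8A with 0.43 ± 0.12 (1.35-fold, adjusted p = 0.00701). These 5 calls held in every alternative run, with each array left out in turn included. ATG8D stood at 0.28 ± 0.11 (adjusted p = 0.0506). Of the other family genes, ATG8H was higher by 1.03 ± 0.16 and ATG8E by 0.90 ± 0.17, while ATG8F stood at -0.09 ± 0.12 (adjusted p = 0.562). ATG8E ran from 7.84 to 8.23 in CRF6oe and from 6.62 to 7.63 on the other arrays, whereas ATG8F overlapped, at 10.11 to 10.68 and 10.23 to 10.89. ATG8H overlapped through 1 WT array with H2O2 at 8.05, with 7.68 to 8.33 in CRF6oe. LHB1B2 was lower in CRF6oe by 0.96 ± 0.16 on the same mean (adjusted p = 1.35e-04). The dim root hair gene EXPA7 stood at 0.29 on it (adjusted p = 0.110). Its differences were 0.13 untreated, 0.46 with H2O2 and 0.28 with BA, none of them called. The part of tissue makeup in the ATG8 differences was not tested, and fewer cells of a type cannot be told apart from less RNA per cell in whole seedlings.

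**Figure D4:**
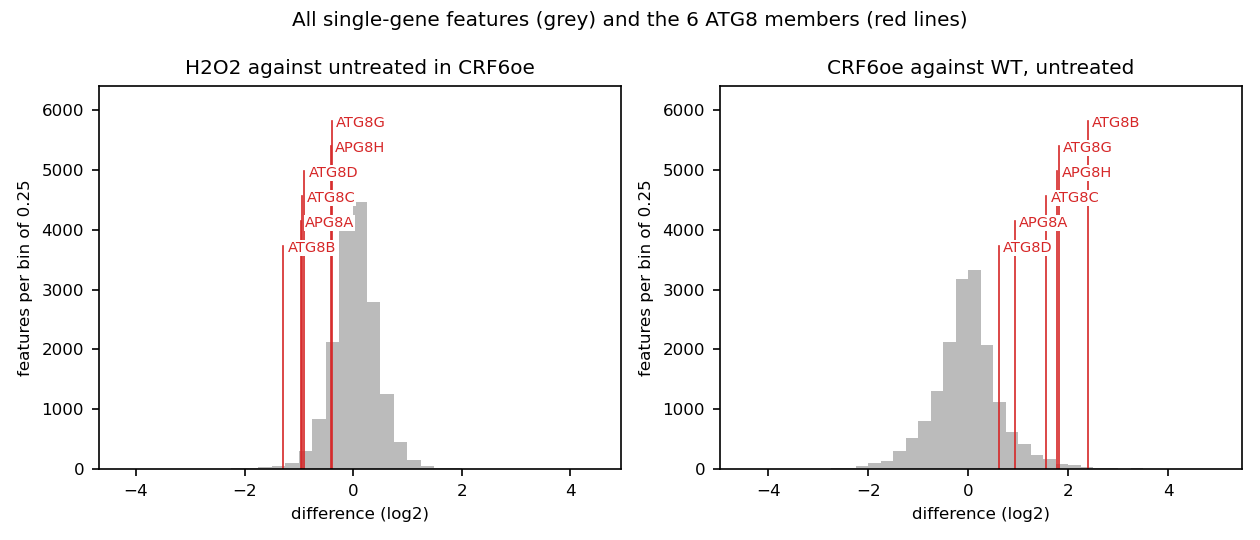
Number of single-gene features (vertical axis) by log2 difference (horizontal axis, bins of 0.25) for H2O2 against untreated in CRF6oe and for CRF6oe against WT without treatment, with the 6 members as red lines whose height carries no value. On the left the members lie between -1.29 and -0.39, and on the right between 0.61 and 2.39.

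Comparison of crf6 with WT asks what the mutation of CRF6 changes. Limma called 0 of 6 against WT untreated (0 at an unadjusted p under 0.05), with H2O2 (1, ATG8B) and with BA (0), as it called 0% of all features in each of these. With H2O2, 1153 of 16722 features had an unadjusted p under 0.05. Over the mean of conditions limma again called 0 of 6, against 0.568% of features. At an unadjusted p under 0.05 stood 2026 of 16722 features there, and 2 of the 6 members. Those 2 went opposite ways: ATG8B stood at -0.40 ± 0.17 (adjusted p = 0.374) and ATG8G at 0.35 ± 0.13 (adjusted p = 0.261). The 95% interval of ATG8B ran from -0.77 to -0.03 and that of ATG8G from 0.08 to 0.62, and neither remained past the threshold after adjustment. The remaining 4 members stood between -0.14 and 0.09.

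The rest of the autophagy machinery was covered in part. Of 48 listed loci for ATG8 lipidation, the ATG1 kinase complex, membrane supply by ATG9, ATG2 and ATG18, the phosphatidylinositol 3-kinase complex, ATG8-binding proteins and TOR and SnRK1 signalling, 15 had a single-gene feature, and none of the 10 membrane supply loci did. None of the 15 was called by limma in WT or crf6 with H2O2 or BA (0 at an unadjusted p under 0.05 in each). At an unadjusted p under 0.05 in limma stood 5 of the 15 with H2O2 in CRF6oe, against 3096 of all 16722 features. After adjustment 1 of 15 fell, against 1.2% of all features called lower. This was the ATG1 kinase complex locus AT3G61960, at -0.81 ± 0.19 (adjusted p = 0.0348), and the median of the 15 was -0.27. That call was lost without each of the 4 arrays in turn (adjusted p up to 0.157), with quantile normalization (0.0748), with cyclic loess (0.0751), in the fit of all features (0.0655) and in the fit of only these arrays (0.208). The same locus was the 1 call of 15 on the mean over genotypes, at -0.40 ± 0.11 (adjusted p = 0.0360), a share near the 6.63% of all features called there. It was lost when any of 8 arrays was left out in turn (adjusted p 0.0577 to 0.103), with quantile normalization (0.0572), with cyclic loess (0.0630), with all features tested (0.0563) and in the fit of only the groups compared (0.0587).

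Between CRF6oe and WT over the mean of conditions, 3 of the 15 were higher and 3 lower, with a median of -0.11. With 46.4% of all features called in this comparison, 6 of 15 is near the background and no result about these loci, whose values are given as a description. ATG3, the enzyme that passes ATG8 to its lipid, was higher by 0.47 ± 0.09 (adjusted p = 6.87e-04), and AT5G66930 (ATG101, a subunit of the ATG1 kinase complex) by 0.76 ± 0.10 (adjusted p = 1.31e-05). DSK2 (AT2G17200), a ubiquitin-binding adaptor, was higher by 0.30 ± 0.11 (adjusted p = 0.0337), a call lost without CRF6oe BA replicate 1 (0.102) and several other arrays. RAPTOR1, a subunit of the TOR complex, which restrains autophagy, was lower by 0.39 ± 0.10 (adjusted p = 0.00691) and at -0.20 (adjusted p = 0.121) with cyclic loess. AT2G37840 was lower by 0.39 ± 0.11 and AT4G34660 by 0.34 ± 0.09. Untreated, 2 of 15 were higher, ATG3 by 0.50 and ATG101 by 0.81 ± 0.17, with a median of -0.02, and with BA ATG101 and AT3G18770 were, by 0.85 and 0.67. These counts too are near the background of 11.3% and 11.8% of features called higher. Under H2O2, where 29.6% of features were called, ATG3 and ATG101 were higher, by 0.46 and 0.62, and AT3G61960, AT2G17190 (DSK2a) and RAPTOR1 were lower by 0.60, 0.66 and 0.60. Those 3 lower calls were lost with quantile normalization and with cyclic loess, which gave -0.35, -0.40 and -0.34, and RAPTOR1 stood at -0.36 without CRF6oe H2O2 replicate 1. The calls of ATG3 in single conditions, of AT3G18770, and of ATG101 and the 3 lower genes under H2O2 were each lost when at least 1 of the arrays was left out, with ATG101 at an adjusted p of 0.0664 without CRF6oe H2O2 replicate 1. SAG101 was the only 1 of 7 senescence genes measured and was called in no contrast, and none of the 8 sugar starvation genes listed had a single-gene feature.

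**Figure D5:**
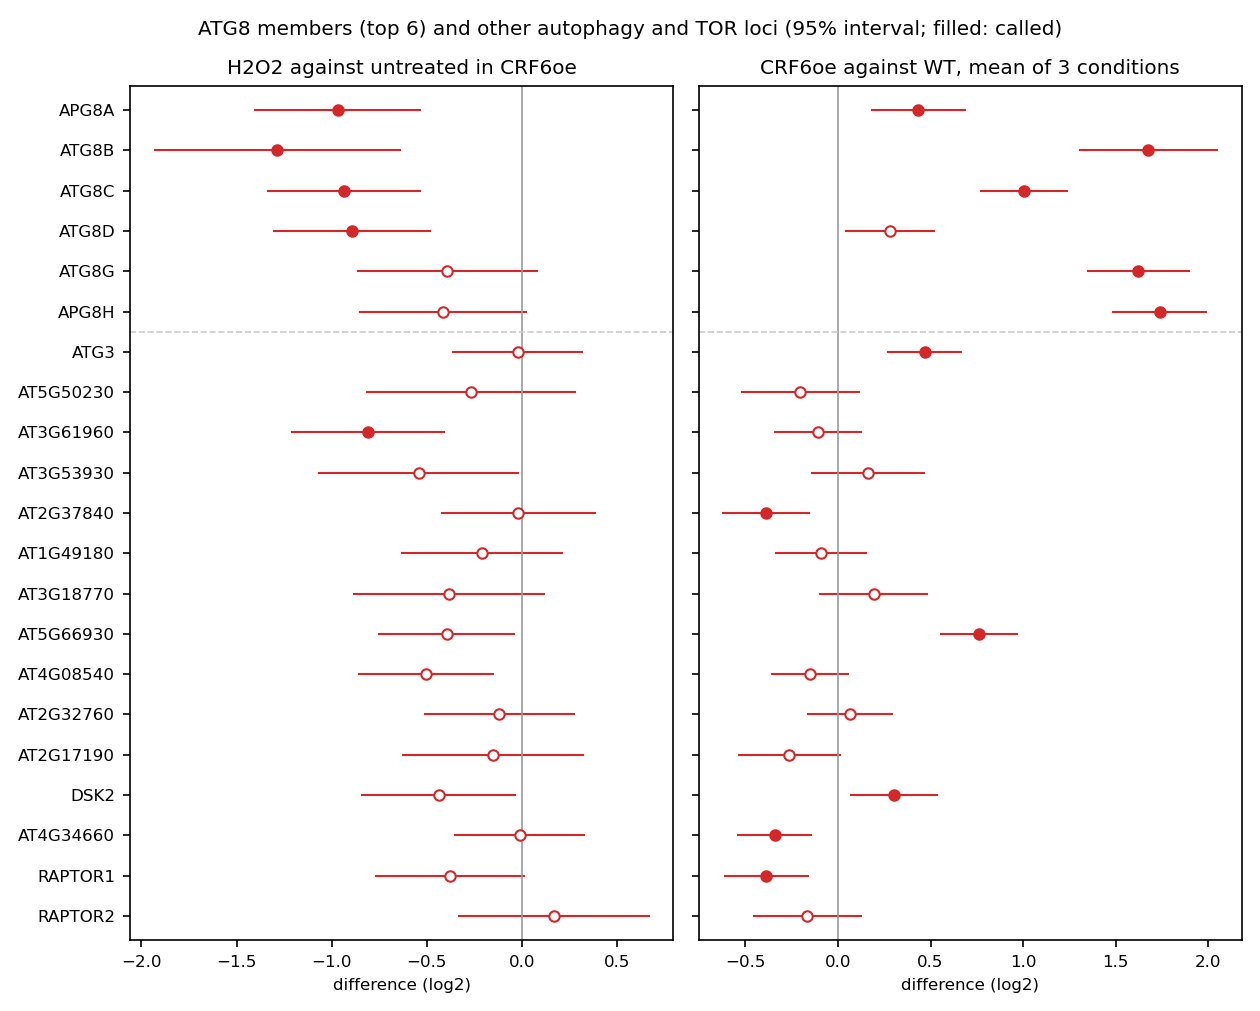
Log2 difference with its 95% interval (horizontal axis) for the 6 ATG8 members, above the dashed line, and the 15 measured loci of the other autophagy and TOR lists, for H2O2 against untreated in CRF6oe and for CRF6oe against WT over 3 conditions. Filled points passed the threshold: 4 members and 1 other locus on the left, 5 members and 6 other loci on the right. Of all features, 2.61% were called on the left and 46.4% on the right.

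Across the 9 group means the members followed each other, with a Pearson r of 0.52 to 0.96 and a median of 0.88 over the 15 pairs. Over the 6 WT and crf6 groups alone the same pairs ranged from -0.91 to 0.70 with a median of -0.19. The likeness over 9 groups therefore rests on the CRF6oe groups. The genes most like each member over 9 groups were chosen by the same r. For APG8A they were AMY1 (an alpha-amylase, r = 0.968), AT3G19900 (0.962) and AT5G04390 (0.960). For ATG8B they were AT1G65720 (0.991), AT1G15400 (0.990) and AT2G01540 (0.989), and for ATG8C AT2G34585 (0.982), AT3G51325 (0.978) and AT4G38870 (0.977). ATG8D was most like AT2G43420 (0.961), AT3G03150 (0.960) and AT5G04267 (0.953). The list for ATG8G held AT3G12260 (0.994), AT1G76200 (0.991) and AT5G65740 (0.989), and that for APG8H AT5G03345 (0.996), AT1G77370 (0.994) and AT3G53970 (0.993). No ATG8 gene was among the 3 nearest of another member.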

How the data were processed

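The authors deposited 1 value per feature and array, used here as log2 values, since the deposited values have medians of 4.63 to 4.98 and reach 14.26. Labelling used biotin-marked cRNA from oligo-dT primed cDNA, per the labels' protocols. For background correction, summary and normalization the method was not given in the sources used here. The values were not rescaled. Of 38408 features, 16722 were paired with exactly 1 gene by the platform's table, and 16574 of these matched RefSeq (TAIR10.1), which gave loci and symbols. Limma 3.58.1 in R 4.3.3 fitted 9 group means to 18 arrays (9 residual and 5.63 prior degrees of freedom), with 20 two-sided contrasts and p-values adjusted over the 16722 features within each. Simulated data with known changes were used to test the script. The number of arrays limits the precision. Figures were drawn with matplotlib 3.10.9.

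Members and lists were chosen with earlier results of these data known. The named genes are all 6 members, listed pathway genes that were called, and for each member the 3 genes with the highest r of group means. ATG8H (AT3G06420) was added to the list of other isoforms in place of AT3G15580, already a member. Alternatives were other arrays in the fit, normalizations, filters, variance moderation, a replicate block and leaving out single arrays. The labels do not say whether shared replicate numbers pair the samples, and the main fit used no pairing. Differences between replicates correlated between groups at -0.20 to 0.33 with a median of 0.04, over 0.1 in 7 of 36 pairs of groups. Whether some groups were paired was not tested further.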

Additional observations from a re-analysis of the deposited data

How the results depend on the processing

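Of 1908 member values recomputed under the alternatives, 1864 kept their call status, 34 lost a call and 10 gained one. No called value changed sign, and 63 uncalled values did. The H2O2 response in CRF6oe, with 4 of 6 members called, gave 0 in the fit of only the groups compared, 1 with all features tested, and 0 to 2 without single arrays. The mean H2O2 response over genotypes, with 0 called, gave 1 without the dimmest 30% of features, 1 with the replicate block and 0 to 1 without single arrays. That member was ATG8C in each case. The replicate block moved no other count of members, and of the genes named in the report it ended only the call of AT3G18770 in CRF6oe against WT with BA (adjusted p = 0.0568) and gave ATG3 one there (0.0496). All 78 recomputed H2O2 values of the members in CRF6oe were below 0. Counts for CRF6oe against WT stayed within 1.5 times. ATG8D over the mean of conditions passed with quantile normalization (0.34, adjusted p = 0.0175), with arrays centred on the median (0.0484), without dim features (0.0382), with cyclic loess (0.0090), an alternative chosen after seeing the data, and without CRF6oe H2O2 replicate 1 or WT BA replicate 1. The cause of these changes was not tested. A second feature for a member could not be tried, since each had 1.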
